A study of Mus musculus with 4 samples.

Results

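Barhl1, Barhl2, Lhx1, Lhx5, Lhx9, Foxb1, Irx1, Irx2, Irx3 and Irx5 encode transcription factors of the diencephalon, the part of the forebrain that forms thalamus, prethalamus, pretectum and hypothalamus and lies next to the eye field. They were taken by gene symbol from the deposited expression table, and all 10 were found among its 55426 rows. RNA came from mouse retinal organoids, stem cell aggregates grown towards retinal progenitors, collected on day 6 and sequenced in pairs of reads after poly(A) selection. All 4 libraries carry the genotype Mettl3 KO with a Dox-inducible HA-METTL3 in a line with an Rx:GFP reporter, and all were grown in the same medium with a compound written AGN. The untreated group held 2 libraries without doxycycline (Dox) and the Dox group 2 libraries with 2 µg/ml Dox for 6 days. METTL3 is the enzyme that writes N6-methyladenosine on RNA, and the comparison asks how these genes differ when the inducible copy is meant to be on. The titles read EV and do not name METTL3, and EV is not explained, so that the Dox-inducible copy in these libraries is METTL3 rests on the genotype label alone. The labels give neither the promoter nor the cell type that drives the inducible copy, nor whether the line is a clone.

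In the embryo, the anterior neural plate is divided into telencephalon, eye field and diencephalon, each with its own homeobox genes. Irx genes are read as markers of the neural plate behind the eye field, and their proteins meet the anterior Six3 domain near the later border between prethalamus and thalamus. Lhx1, Lhx5 and Lhx9 encode LIM homeodomain proteins whose LIM domains bind the cofactor Ldb1. Barhl1 and Barhl2 encode Bar-type homeodomain proteins, and Foxb1 encodes a forkhead protein of the mammillary hypothalamus and thalamus. Several of the same genes are later used again in retinal, cerebellar and spinal neurons.

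Values are FPKM, fragments relative to transcript length and depth, so levels can be set side by side between genes. The depth estimated from the steps between low values was 31900000 to 34700000 fragments per library, and 13813 to 13909 genes reached 1 FPKM. Mettl3 was at 40.33 and 37.98 FPKM untreated and at 45.2 and 46.37 FPKM with Dox, with an adjusted p of 0.122 in limma. Transcript of the knocked-out gene and of the inducible copy cannot be told apart in these values, so they do not check the genotype label. Of 8 retinal progenitor genes, 7 rose with Dox, and Rax, the eye-field gene behind the reporter, went from 1.12 and 0.82 FPKM to 201.14 and 227.98 FPKM. The untreated libraries held some of these markers and not others: Six6 and Hmx1 did not exceed 0.13 FPKM there, while Six3 was at 7.7 and 7.05 FPKM and Lhx2 at 26.72 and 24.3 FPKM. Pax6, shared by eye field and diencephalon, was at 123.3 ± 6.29 and 126.7 ± 5.58 FPKM (SD, n = 2 each) and did not pass. Nothing in the labels says that replicates came from separate cultures, so p-values measure only the spread between these libraries, which may be technical.

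All 10 genes had lower values in both Dox libraries than in both untreated libraries. The 8 with a mean of at least 1 FPKM were tested, and all 8 fell past an adjusted p of 0.05 in limma, where 4.87% of the 13931 tested genes were called lower. Barhl1, Barhl2, Foxb1, Irx1 and Irx5 reached that mean only through the untreated libraries, while Lhx5, Irx2 and Irx3 were above 1 FPKM in both groups, and Lhx1 and Lhx9 stayed under it. Both Dox libraries lay below both untreated ones in 26.9% of the tested genes. The 10 genes were chosen with earlier results of these data known, so their counts are no independent evidence about them as a set. The median log2 fold change over the 8 genes, on the log2(FPKM + 1) scale, was -2.19, against -0.0042 over all tested genes, and it was -0.89 with a pseudocount of 5 in place of 1. Summed over the 10 genes, the level was 79.09 and 68.74 FPKM untreated and 10.85 and 9.95 FPKM with Dox. In bulk RNA, fewer cells of a type and less RNA per cell cannot be told apart. With 2 libraries against 2, an exact two-sided permutation test of a single gene cannot go below 0.333, so the adjusted p-values rest on the variance that limma shares across genes.

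**Figure D1:**
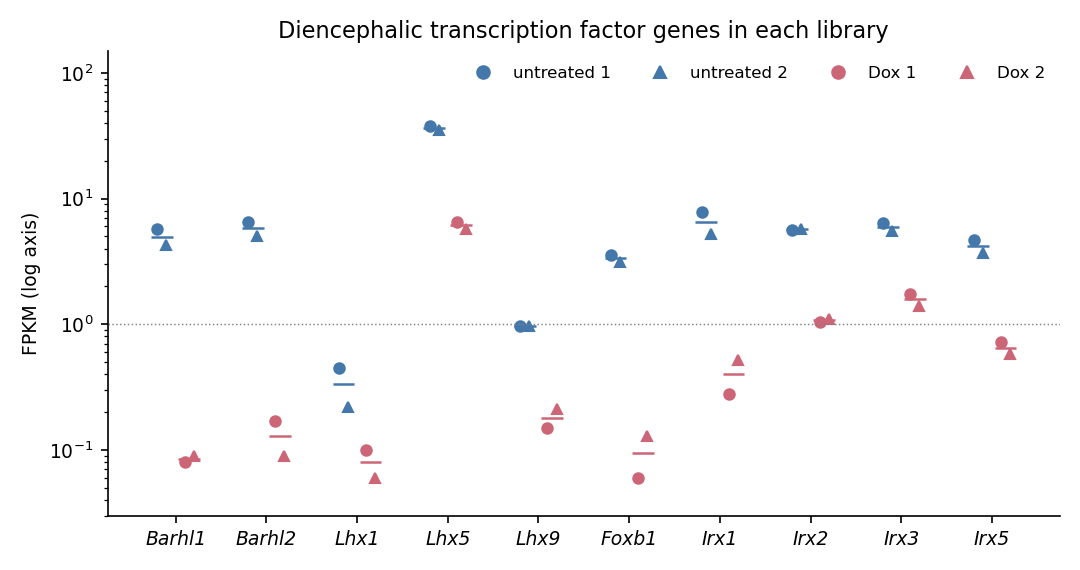
FPKM of each gene on a log axis, with untreated libraries in blue and Dox libraries in red (circle, replicate 1; triangle, replicate 2); short lines are group means and the dotted line marks 1 FPKM. Every gene has its red points below its blue points, and Lhx5 stands above the other genes in all 4 libraries.

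Both genes of the Bar-type pair fell, to under 0.2 FPKM in each Dox library. Barhl1 (ENSMUSG00000026805, GRCm38 chr2:28907679-28916668, minus strand) takes part in the survival and migration of neurons of cerebellum and midbrain. It was at 5.68 and 4.28 FPKM untreated and at 0.08 and 0.09 FPKM with Dox. The untreated mean of 4.98 ± 0.99 FPKM was 58.6 times the Dox mean of 0.085 ± 0.0071 FPKM (SD, n = 2 each), and the log2 fold change was -2.45 ± 0.160 (SE; adjusted p = 7.47e-04 in limma). Both Dox values are low and close together, and they rest on an estimated 8.7 and 10.1 fragments. Barhl2 (ENSMUSG00000034384, chr5:106452523-106458166, minus strand) acts in the diencephalic organizer region and in retinal amacrine and ganglion cells. It was at 6.56 and 5.07 FPKM untreated and at 0.17 and 0.09 FPKM with Dox. Its means were 5.82 ± 1.05 and 0.13 ± 0.0566 FPKM (SD, n = 2 each), a ratio of 44.7, and the log2 fold change -2.58 ± 0.156 (SE; adjusted p = 6.12e-04 in limma). Taking single libraries, the ratio ran from 47.6 to 71.0 for Barhl1 and from 29.8 to 72.9 for Barhl2, so the 2 ranges overlapped, and both overlapped that of Foxb1 (24.2 to 59.5). Barhl2 stood at 1.16 and 1.19 times Barhl1 in the untreated libraries, and at 2.13 and 1.00 times in the Dox libraries, where few fragments carry the ratio.

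The 250 bases upstream of the start site are shown for Barhl1, Barhl2 and Irx2. These genes fell together, and each has a RefSeq start that coincides with the start of the GENCODE gene. The sequences are from RefSeq (GRCm38.p6), which held 6 of the 10 genes, and are written 5′ to 3′ on the strand of the gene. They lie at chr2:28916669-28916918 on the minus strand for Barhl1, chr5:106458167-106458416 on the minus strand for Barhl2 and chr13:72628570-72628819 on the plus strand for Irx2. Capitals mark the motif matches found among TAATTA and TAATTG (homeodomain cores), ACATGT (an Irx site) and CTTTGA and CTTTGT (TCF/LEF), each searched on both strands.
Barhl1: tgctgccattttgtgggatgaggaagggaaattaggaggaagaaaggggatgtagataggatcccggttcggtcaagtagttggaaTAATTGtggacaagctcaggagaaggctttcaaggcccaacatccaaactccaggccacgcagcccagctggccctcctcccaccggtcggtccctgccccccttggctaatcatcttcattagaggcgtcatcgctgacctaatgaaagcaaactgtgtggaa
Barhl2: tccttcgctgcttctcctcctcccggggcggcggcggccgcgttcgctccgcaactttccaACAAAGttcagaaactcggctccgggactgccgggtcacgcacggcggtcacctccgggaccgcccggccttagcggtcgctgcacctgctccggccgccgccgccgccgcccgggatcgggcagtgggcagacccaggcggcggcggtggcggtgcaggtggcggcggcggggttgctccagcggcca
Irx2: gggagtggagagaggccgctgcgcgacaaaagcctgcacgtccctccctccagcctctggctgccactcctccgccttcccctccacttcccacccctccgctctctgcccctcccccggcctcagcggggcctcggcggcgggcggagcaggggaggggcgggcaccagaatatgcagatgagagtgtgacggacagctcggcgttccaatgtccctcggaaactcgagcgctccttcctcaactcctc

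The Barhl1 window held 1 TAATTG, which 7.17% of 32841 such windows hold, and the Barhl2 window held 1 CTTTGT, read as ACAAAG on the printed strand, which 16.5% hold. No motif of the 5 was found in the Irx2 window. The TAATTA core, in 4.84% of all windows, the Irx site ACATGT, in 4.58%, and the form CTTTGA, in 13.8%, were in none of the 3. The windows had no common base composition, with 52.8% G and C for Barhl1, 74.8% for Barhl2 and 68.4% for Irx2, against a median of 52.4% over all windows. The observed over expected CpG ratio was 0.403, 1.03 and 0.666 in the same order, against a median of 0.374. Barhl1 and Barhl2, whose ratios overlapped, thus had the lowest and the highest value of the 3 windows shown on both measures. RefSeq holds another start of Barhl1, 4173 bases from the start of the GENCODE gene. Its window, not shown, held 1 TAATTG, with 56.8% G and C and a CpG ratio of 0.601.

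Among the LIM homeobox genes, Lhx5 was the most abundant gene of the 10 in every library. Lhx5 (ENSMUSG00000029595, GRCm38 chr5:120431699-120441223, plus strand) restrains Wnt signalling in the anterior neural plate and marks prethalamus, mammillary area and Cajal-Retzius cells. It was at 37.46 and 34.81 FPKM untreated and at 6.49 and 5.76 FPKM with Dox. The means were 36.1 ± 1.87 and 6.13 ± 0.516 FPKM (SD, n = 2 each), a ratio of 5.90, and the log2 fold change -2.38 ± 0.0920 (SE; adjusted p = 1.44e-04 in limma). The groups lay far apart relative to their replicates, and Lhx5 still made up 59.8% and 57.9% of the summed FPKM of the 10 genes with Dox, against 47.4% and 50.6% without. At an estimated 463 to 506 fragments it was also the best measured of them in the Dox libraries.

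Lhx9 (ENSMUSG00000019230, GRCm38 chr1:138825186-138848577, minus strand), a gene of thalamic and pretectal neurons and of the early gonad, was at 0.97 and 0.96 FPKM untreated and at 0.15 and 0.21 FPKM with Dox. The ratio of the means was 5.36, close to that of Lhx5, although the mean of Lhx9 stayed under the minimum for the test. Lhx1 (ENSMUSG00000018698, chr11:84518284-84525535, minus strand), a gene of the head organizer, kidney and retinal horizontal cells, was at 0.45 and 0.22 FPKM untreated and at 0.10 and 0.06 FPKM with Dox. Its untreated libraries differed from each other about as widely as the groups did, and the library ratios ran from 2.20 to 7.50. When every gene with a value was tested, Lhx9 passed (log2 fold change -0.74, adjusted p = 0.0327 in limma) and Lhx1 did not (-0.30, adjusted p = 0.274). In that fit 9 of the 10 genes were called lower, where 1.49% of 27532 genes were. This count too is of genes chosen with earlier results known.

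Other LIM homeobox genes, from a list of 9, did not share one direction. Of the 2 with enough signal, Lhx2, an eye-field and cortical selector gene and the closest relative of Lhx9, rose from 26.72 and 24.3 FPKM to 277.17 and 323.88 FPKM (log2 fold change 3.50, adjusted p = 6.96e-05 in limma). The share of all tested genes called higher was 4.44%. Lhx2 exceeded Lhx9 by 27.5 and 25.3 times in the untreated libraries and by 1848 and 1542 times in the Dox libraries. Lmx1a, a gene of the roof plate and dorsal midline, fell from 5.36 and 5.36 FPKM to 0.49 and 0.68 FPKM (log2 fold change -2.01, adjusted p = 6.92e-04). The other 7 were below the minimum, among them Isl1 at 0.875 ± 0.0354 and 0.975 ± 0.134 FPKM (SD, n = 2 each). Another, Lmx1b, was at 1.29 and 1.06 FPKM untreated and at 0.44 and 0.33 FPKM with Dox. It did not pass when all genes were tested (adjusted p = 0.0851 in limma). Over the list of 9, both Dox libraries lay below both untreated ones in 3 genes and above them in 2, and 4 overlapped.

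The LIM-binding cofactors were measured because LIM homeodomain proteins act through them. Of 10 such genes 3 were called higher with Dox, 0 lower and 7 neither, with a median log2 fold change of 0.26. Only 1 was called higher without untreated replicate 1, untreated replicate 2 or Dox replicate 2. Ldb1, which encodes the bridging protein for LIM domains, was at 112.9 ± 0.276 and 137.2 ± 9.14 FPKM and did not pass (adjusted p = 0.083 in limma). Lmo1, which encodes a LIM-only protein that competes for Ldb1, showed the highest fold change of the list, from 7.07 and 5.14 FPKM to 39.19 and 42.03 FPKM (log2 fold change 2.56, adjusted p = 4.56e-04).

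Foxb1 (ENSMUSG00000059246, GRCm38 chr9:69757710-69760940, minus strand), the only forkhead gene of the 10, was at 3.57 and 3.14 FPKM untreated and at 0.06 and 0.13 FPKM with Dox. Its means were 3.36 ± 0.304 and 0.095 ± 0.0495 FPKM (SD, n = 2 each), a ratio of 35.3, and the log2 fold change -1.99 ± 0.138 (SE; adjusted p = 9.14e-04 in limma). The Dox values rest on an estimated 5.2 and 11.7 fragments, and the library ratios ran from 24.2 to 59.5. The relative Foxb2 and the Bar-type relatives Barx1, Barx2 and Bsx, a list of 4, stayed below 1 FPKM in all libraries. An antisense gene, B230323A14Rik, overlaps 418 bases of the exon length of Foxb1 and was at 0.12 and 0.18 FPKM untreated and at 0 and 0.01 FPKM with Dox.

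**Figure D2:**
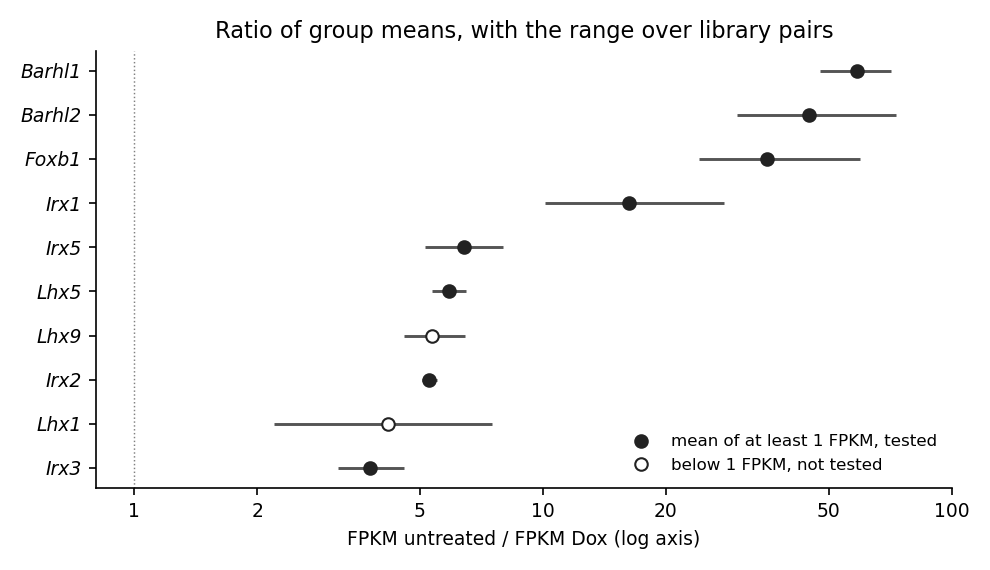
Ratio of the untreated to the Dox mean FPKM on a log axis (points), with lines from the lowest to the highest ratio of one untreated to one Dox library; open points are genes under 1 FPKM on average, which were not tested. Barhl1, Barhl2 and Foxb1 lie between 35.3 and 58.6, Irx1 at 16.3, and the other 6 genes between 3.78 and 6.42.

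All 4 Irx genes fell, by ratios from 3.78 to 16.3. Irx1 was at 7.76 and 5.25 FPKM untreated and at 0.28 and 0.52 FPKM with Dox. Its means of 6.51 ± 1.77 and 0.40 ± 0.170 FPKM (SD, n = 2 each) gave a ratio of 16.3, and the log2 fold change -2.41 ± 0.201 (SE; adjusted p = 0.00176 in limma). Relative to their level, replicates of Irx1 were the least alike of the 4 Irx genes in both groups, without overlap between groups. Irx2 was at 5.61 and 5.77 FPKM untreated and at 1.05 and 1.11 FPKM with Dox, a ratio of 5.27 (log2 fold change -1.69, SE 0.112, adjusted p = 8.16e-04 in limma).

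Irx3, which gives caudal forebrain tissue the competence to form thalamus, was at 6.39 and 5.53 FPKM untreated and at 1.75 and 1.4 FPKM with Dox. With a ratio of 3.78 (log2 fold change -1.44, SE 0.134, adjusted p = 0.00260 in limma) it kept the largest part of its untreated level among the 8 tested genes. Irx5, which later acts in retinal bipolar cells, was at 4.64 and 3.71 FPKM untreated and at 0.72 and 0.58 FPKM with Dox, a ratio of 6.42 (log2 fold change -1.64, SE 0.146, adjusted p = 0.00221 in limma). Irx3 exceeded Irx5 by 1.38 and 1.49 times untreated and by 2.43 and 2.41 times with Dox, so the pair did not keep its proportion. Irx1 was at 1.21 and 0.949 times Irx3 untreated and at 0.16 and 0.371 times with Dox. These differences between genes were not tested.

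Irx genes lie in 2 clusters of 3. On GRCm38 chromosome 13, Irx1 (71957921 to 71963723), Irx2 (72628820 to 72634198) and Irx4 (73260479 to 73269608) follow each other with gaps of 665.1 and 626.3 kb. On chromosome 8, Irx3 (91798525 to 91802067), Irx5 (92357625 to 92376286) and Irx6 (92674288 to 92680956) have gaps of 555.6 and 298.0 kb. The last gene of each cluster was low. Irx4, known from the heart ventricle and retina, was at 0.16 and 0.15 FPKM untreated and at 0.51 and 0.67 FPKM with Dox, the reverse of Irx1 and Irx2, and did not pass when all genes were tested (log2 fold change 0.46, adjusted p = 0.0837 in limma). Irx6 was at 0.01 and 0.02 FPKM untreated, an estimated 1.0 and 2.2 fragments, and was listed at 0 with Dox. Mkx, a TALE homeobox relative in the same list of 3, was at 1.33 and 0.48 FPKM untreated and at 0.58 and 0.57 FPKM with Dox, with overlapping groups.

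**Figure D3:**
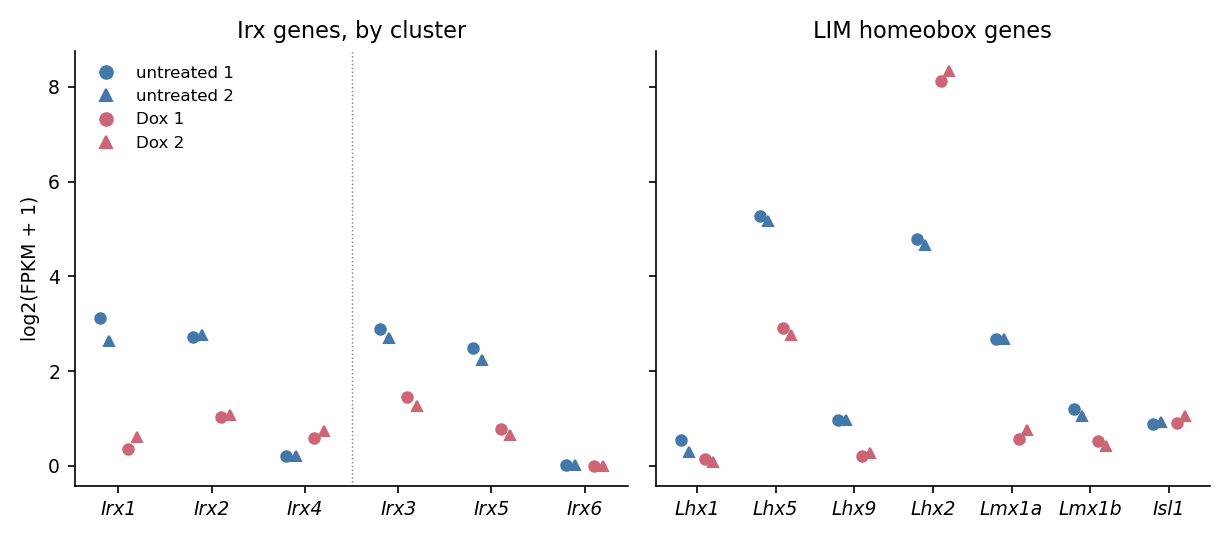
log2(FPKM + 1) in each library for Irx genes (left, cluster of Irx1, Irx2 and Irx4 before the dotted line, cluster of Irx3, Irx5 and Irx6 after it) and LIM homeobox genes (right); blue, untreated; red, Dox; circle, replicate 1; triangle, replicate 2. Irx4 lies higher with Dox while Irx1, Irx2, Irx3 and Irx5 lie lower, and Lhx2 moves opposite to Lhx5.

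Genes beside the Irx clusters changed little. Of 10 genes in this list 9 were tested, with 1 called higher and 0 lower. Fto, which encodes an RNA demethylase and lies beside the cluster of Irx3, was at 62.08 and 58.41 FPKM untreated and at 58.23 and 59.54 FPKM with Dox (adjusted p = 0.823 in limma). Crnde, a noncoding gene 1.5 kb from Irx5, was at 1.2 and 1.8 FPKM untreated and at 0.82 and 0.96 FPKM with Dox (adjusted p = 0.234). Mmp2, a matrix protease gene, rose from 18.08 and 17.46 FPKM to 29.11 and 31.9 FPKM (log2 fold change 0.75, adjusted p = 0.00413).

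Within 100 kb of the 10 genes the table held 39 other genes, of which 13 were tested, with 2 called lower and 2 higher. These 4 are named after their values were seen. Cfap77, a cilia and flagella gene 10.3 kb from Barhl1, fell from 5.63 and 4.64 FPKM to 0.68 and 0.66 FPKM (log2 fold change -1.87, SE 0.135, adjusted p = 0.00104 in limma), a ratio of 7.66. Ddx31, a helicase gene only 2.1 kb from Barhl1, was at 7.85 and 7.77 FPKM untreated and at 7.08 and 7.60 FPKM with Dox (adjusted p = 0.660). Of these neighbours of Barhl1, Cfap77 passed and the nearer Ddx31 did not.

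The noncoding Gm28050, 42.7 kb from Barhl2, was called lower (log2 fold change -0.57, adjusted p = 0.0492 in limma), and Sdsl and Tpcn1, 17.0 and 92.9 kb from Lhx5, were called higher (0.47, adjusted p = 0.0432, and 0.86, adjusted p = 0.00945). The calls of Gm28050 and Sdsl were lost when any one library was left out (adjusted p 0.0960 to 0.237 and 0.140 to 0.199). That of Tpcn1 was lost without untreated replicate 2 (0.0637) or Dox replicate 2 (0.0716).

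**Figure D4:**
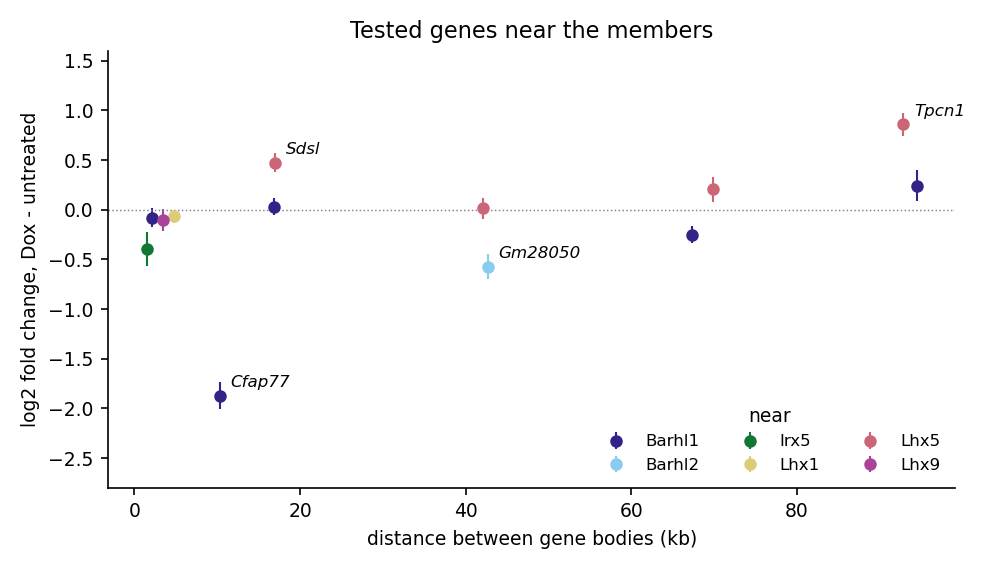
log2 fold change (Dox minus untreated, with its standard error) of the 13 tested genes within 100 kb of a gene of the set, against the distance between gene bodies in kb; colours give the gene they lie near. Cfap77 stands apart at -1.87, and the other 12 lie between -0.57 and 0.86.

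Overlap with antisense genes could touch 3 of the 10 if counting ignored strand, which the sources used here do not give. Besides B230323A14Rik at Foxb1, Irx3os overlaps 4.49% of the exon length of Irx3 and Gm27199 overlaps 2.57% of that of Lhx5. None of these antisense genes exceeded 0.64 FPKM in a library. Lhx1os, which starts 125 bases from Lhx1 without overlap, was at 0.09 and 0.16 FPKM untreated and was listed at 0 with Dox. The antisense and divergent genes thus showed low values on the untreated side and lower or zero values with Dox, and none passed when all genes were tested (adjusted p 0.112 to 0.225 in limma).

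The letters GGACT, the most frequent setting of N6-methyladenosine in mRNA, were counted on the sense strand of the longest GENCODE transcript. They were present in 9 of the 10 transcripts, against 93.3% of 11648 tested coding genes. The density was 2.46 per kb in Barhl1, with 9 copies, and 0.432 per kb in Barhl2, with 1 copy. Irx5, with 0 copies, had a ratio of untreated to Dox means of 6.42. Genes with 2 copies had ratios from 5.27 (Irx2) to 35.3 (Foxb1). Whether copies and the size of the fall are related was not tested. In all, 3 of the 10 lay above the median density of 1.04 per kb. A match is a description of letters and no measure of methylation, which these data do not hold.

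In the untreated libraries the order of mean levels was Lhx5, Irx1, Irx3, Barhl2, Irx2, Barhl1, Irx5, Foxb1, Lhx9 and Lhx1. The replicate ranges of Irx1, Irx3, Barhl2, Irx2 and Barhl1 overlapped each other, as did those of Barhl1 and Irx5, so these neighbours do not differ beyond their spread. With Dox the order was Lhx5, Irx3, Irx2, Irx5, Irx1, Lhx9, Barhl2, Foxb1, Barhl1 and Lhx1, in which Lhx9 overlapped Barhl2 and the last 4 overlapped each other. Irx1 and the Barhl pair moved down the order by 3 places each, and Irx5 and Lhx9 moved up by as many.

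The genes with the profile nearest to the mean of the 8 tested genes, by Euclidean distance of centred log2(FPKM + 1) values over the 4 libraries, were Sox1, Olig2, Neurog2, Mecom and Gadd45g, at distances of 0.115 to 0.137. Sox1, a neural progenitor gene, was at 27.37 and 25.73 FPKM untreated and at 5.53 and 5.17 FPKM with Dox. Olig2, a progenitor gene of thalamus and ventral neural tube, was at 4.97 and 3.74 FPKM untreated and at 0.18 and 0.21 FPKM with Dox. All 5 fell, with log2 fold changes of -2.19 to -2.12, and with 4 libraries in 2 groups the distance is set mainly by the fold change.

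Other genes of diencephalic territories were read from lists. Of 13 thalamus and zona limitans genes 5 were tested, with 3 called lower and 1 higher. Dbx1, a progenitor homeobox gene, fell from 19.58 and 14.89 FPKM to 2.10 and 1.49 FPKM (log2 fold change -2.70, adjusted p = 7.27e-04 in limma), while Prox1 was called higher (0.83, adjusted p = 0.0122), a call lost when any one library was left out (0.0545 to 0.0865). Without a filter 2 of the 13 were called lower and 1 higher, Gata3, at 0.21 and 0.18 FPKM untreated and at 0.86 and 0.97 FPKM with Dox (adjusted p = 0.0385 in limma). Of 10 prethalamus genes 5 were tested, with 3 lower and 0 higher. Without a filter 1 was called higher, Dlx5, at 0.09 and 0.05 FPKM untreated and at 1.06 and 0.95 FPKM with Dox (adjusted p = 0.0248 in limma).

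Of 9 pretectum and epithalamus genes 5 were tested, with 3 lower and 0 higher, and 8 of the 9 had both Dox libraries below both untreated ones. Wnt1, a signal of the dorsal midline and midbrain, fell from 9.42 and 8.77 FPKM to 1.01 and 0.95 FPKM (log2 fold change -2.35, adjusted p = 2.55e-04 in limma). Of 10 hypothalamus genes 2 were tested, with 0 called lower and 1 higher, and without a filter 2 were called each way. Hmx3, also an optic and otic gene, rose from 0.20 and 0.14 FPKM to 3.84 and 5.00 FPKM (log2 fold change 2.20, adjusted p = 9.82e-04).

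The defining genes of ventral hypothalamus and zona limitans were near absence in every library. Nkx2-1 was listed at 0 in 3 libraries and at 0.03 FPKM in Dox replicate 2, and Shh did not exceed 0.06 FPKM. Gbx2, a defining gene of thalamic neurons, did not exceed 0.16 FPKM.

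**Figure D5:**
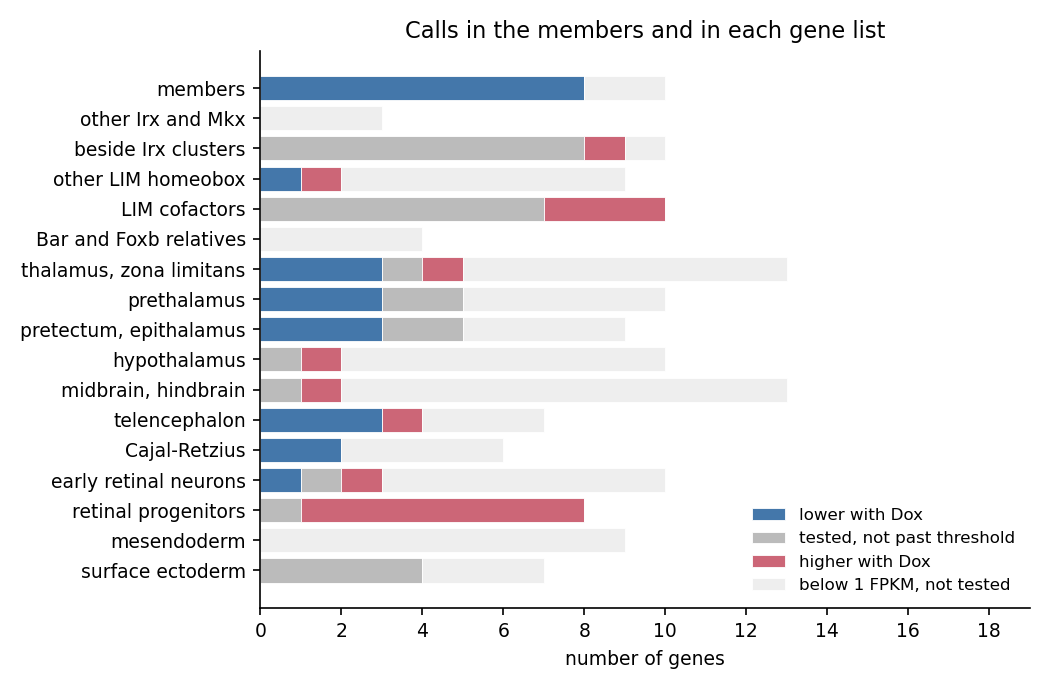
Number of genes in each list that were called lower (blue) or higher (red) with Dox at an adjusted p under 0.05 in limma, tested without passing (grey) or under 1 FPKM on average (pale). All 8 tested genes of the set are blue, 7 of the 8 retinal progenitor genes are red, and most genes of the midbrain and hindbrain list were not tested.

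Markers of other cells in which the 10 genes are used were set beside them. Of 13 midbrain and hindbrain genes 11 stayed below 1 FPKM in all libraries, with 1 listed at 0 throughout, and the summed level was 5.76 to 6.21 FPKM untreated and 9.91 to 10.5 FPKM with Dox. One of the 2 tested, Fgf8, was called higher (log2 fold change 0.78, adjusted p = 0.00904 in limma), a call lost when any one library was left out (0.0501 to 0.0674). Of 7 telencephalon genes 4 were tested, with 3 lower and 1 higher, and the sum was 164.3 to 166.2 FPKM untreated and 44.7 to 52.4 FPKM with Dox. Emx2, a dorsal forebrain gene, fell from 78.18 and 75.76 FPKM to 11.01 and 6.26 FPKM (log2 fold change -3.06, adjusted p = 0.00117 in limma).

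Of 6 Cajal-Retzius genes 2 were tested and both fell, a count of 1 when any one library was left out, with sums of 53.1 to 56.2 FPKM untreated and 5.86 to 6.92 FPKM with Dox. Most of that sum was Cxcr4, a chemokine receptor gene that progenitors also express (log2 fold change -3.37, adjusted p = 1.11e-04 in limma), and the defining Trp73 did not exceed 0.10 FPKM. Reln, the other defining gene, lay the other way, at 0.35 and 0.41 FPKM untreated and at 1.13 and 0.89 FPKM with Dox, and did not pass when all genes were tested (adjusted p = 0.108). Of 10 early retinal neuron genes 3 were tested, with Crx, a photoreceptor gene, higher (2.11, adjusted p = 6.43e-04) and Tfap2b, an amacrine gene also found in dorsal neural tube, lower (-2.45, adjusted p = 4.15e-04), and without a filter 2 were called each way. The summed level was 13.95 to 14.77 FPKM untreated and 10.6 to 11.4 FPKM with Dox, and the ganglion cell gene Pou4f2 did not exceed 0.05 FPKM.

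All 9 mesendoderm genes were below 1 FPKM in every library, with sums of 0.86 to 0.97 FPKM untreated and 0.94 to 1.04 FPKM with Dox. Of 7 surface ectoderm genes 4 were tested and 0 passed in either direction, with sums of 50.3 to 55.5 FPKM untreated and 52.0 to 59.5 FPKM with Dox. The 8 retinal progenitor genes summed to 152.1 to 164.4 FPKM untreated and 845.1 to 982.7 FPKM with Dox, the opposite direction to the 10 diencephalic genes. Most of the untreated sum was Pax6, which did not pass, at 127.76 and 118.86 FPKM untreated and at 122.8 and 130.69 FPKM with Dox. The part of these markers in the fall of the 10 genes was not tested.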

How the data were processed

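RNA levels of 4 libraries, 2 untreated and 2 Dox, were analysed. The authors deposited FPKM values, 1 column per library and rounded to 2 decimals. STAR, Cuffdiff and the build mm10 are named in the submitters' processing notes, without versions or roles. The annotation release and strand setting are not given in the sources used here. Values were transformed to log2(FPKM + 1). Genes whose mean reached 1 FPKM, 13931 in all, entered limma 3.58.1 (R 4.3.3, trended eBayes, all 4 libraries, no covariate). P-values were adjusted by Benjamini-Hochberg over the tested genes and called under 0.05. Fold changes on this scale understate the change of low genes, so ratios of mean FPKM are given beside them.

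Depth was fitted per library from the steps between values under 0.5 FPKM of single-transcript genes of 450 to 1200 nt. Between 89.5% and 90.5% of these values came out within 0.2 of a whole fragment, against 40% by chance. Fragment numbers use the longest GENCODE M21 (GRCm38) transcript, are approximate and cover counting only. Every value of the 10 genes lay above 3 fragments.

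The 10 genes and 16 lists were chosen with earlier results of these data known. Named genes are the 10, Mettl3, Rax, other Irx genes, the called gene with the highest and the lowest fold change in each list, and the 5 nearest profiles. Others named were chosen after their values were seen, and some genes that the rule names are not reported here. The alternatives were 2 other pseudocounts, other filters, 3 scalings, 2 variance models, a replicate block and each library left out. The fit and the depth estimate were tested on simulated data.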

Additional observations from a re-analysis of the deposited data

How the results depend on the processing

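All 8 tested genes of the set were called lower under each alternative that tested them, with adjusted p-values in limma of at most 0.0427 (Irx3 without a filter), and 0 of the 10 were called higher in any fit. With a minimum mean of 5 FPKM only Lhx5 was tested, so the count of called genes was 1. Lhx9 was tested only without a filter and passed there (-0.74). The median over the tested genes was -3.14 with a pseudocount of 0.1, -0.89 with a pseudocount of 5, -1.84 without a filter and -2.38 with the minimum of 5 FPKM. It ranged from -2.25 to -2.04 when each library was left out, in fits that assume the lone library of a group to vary like the others. Over the whole table, genes called lower numbered 409 without a filter, 413 with the minimum of 5 FPKM and 341 to 370 with a library left out, against 678. Genes called higher numbered 336, 408 and 265 to 332, against 619. Genes of the lists called lower were 9 with the minimum of 5 FPKM, against 16. Of 448 counts of single lists under the alternatives, 418 stayed within 1.5 times the value reported, or at 0 where that value was 0. The other 30 did not. The 448 include lists without a tested gene, such as that of Irx4, Irx6 and Mkx, whose counts were 0 throughout.

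With the replicate block 8 of the 10 genes were called lower, and 602 genes were called lower and 532 higher over the whole table. The labels do not say whether the replicate numbers pair the libraries. Deviations of same-numbered libraries from their group means had a correlation of -0.043 across genes. With 2 libraries per group this value cannot settle whether they were paired. Of the genes named, the block changed the calls of Gm28050 (adjusted p = 0.0582 in limma) and Sdsl (0.0955). Prox1, Fgf8, Tpcn1, Sdsl and Gm28050 were also lost without a filter. The cause was not tested. The scalings shifted the median over tested genes to at most 0.016. Few fragments limit the ratios of Barhl1, Barhl2, Foxb1 and Lhx1, each at 11.7 or fewer per Dox library.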
